A study of Mus musculus with 8 samples.

Results

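Mitochondrial ribosomal protein genes were chosen by symbol, as every gene in the deposited count table named Mrpl or Mrps followed by a number and at most one letter. There were 78 such genes among 21899, with 49 named for the large ribosomal subunit and 29 for the small one. The cells were mesenchymal stem cells from mouse femoral marrow, adherent progenitors of bone, fat and cartilage, and their poly(A) RNA was sequenced. In the EA group, 4 libraries came from cells given 10 µM ellagic acid, a plant polyphenol, for 48 h, and in the control group 4 came from cells given DMSO, the solvent, for the same time. The labels used here name no strain, sex, age or passage. They are also silent on whether replicate libraries were separate cultures or animals, so the spread behind each p-value may be technical.

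The mitochondrial ribosome translates the few messenger RNAs encoded by mitochondrial DNA, all of which specify subunits of the respiratory chain and ATP synthase. Its ribosomal RNAs are made inside the organelle, whereas every one of its proteins is encoded in the nucleus, translated in the cytosol and imported. Some of these proteins have counterparts in the bacterial ribosome, and others are found only in mitochondria. The symbol does not always give the subunit: the products of Mrps30 and Mrps18a sit in the large subunit of the mammalian structure, and the product of Mrps36 is now known as a subunit of the 2-oxoglutarate dehydrogenase complex.

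Total counts per library ranged from 14112519 to 17390200 reads. TMM factors rescale libraries on the assumption that most genes are unchanged. With these factors 67.2% of all tested genes passed an adjusted p below 0.05, so the assumption may not hold here. The factors lay between 1.13 and 1.14 for control libraries and between 0.878 and 0.885 for EA. Of 13 mesenchymal stromal markers 12 had enough reads to be tested, with a summed level of 17893 to 20743 CPM (reads scaled to a common library size, here by library totals) for control and 21470 to 22332 for EA. Summed levels of 13 macrophage and monocyte markers ranged from 67.5 to 84.5 (control) and from 52.5 to 56.4 (EA), with C1qc at 0 in all libraries. Only 3 of these 13 had enough reads to be tested. Markers within a list went opposite ways on the TMM scale. Lyz2 rose from 34.3 to 51.0 CPM and Cd14 fell 3.53-fold to 9.65 CPM. Of the 12 tested stromal markers 8 were higher, among them Pdgfrb by 2.74-fold, and only Ly6a was lower, by 2.82-fold. These stromal counts are at an adjusted p below 0.05, where 33.1% of all tested genes were higher and 34.2% lower. The 6 erythroid markers, of which 1 was tested, summed to at most 3.80 CPM in any library, with Hba-a2 at 0. The 6 endothelial markers, of which 1 was tested, summed to at most 4.73. The part of these shifts in the values below was not tested. In bulk libraries, fewer cells of a type and less RNA per cell cannot be told apart.

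With TMM scaling, most mitochondrial ribosomal protein genes passed no threshold with EA, a minority fell and few rose, and every change was less than 2-fold. Of 77 tested members 23 fell and 6 rose with an adjusted p below 0.05 (quasi-likelihood test of edgeR, Benjamini-Hochberg over 11777 genes). Together 37.7% of members were called, beside 67.2% of all tested genes, of which 34.2% were lower and 33.1% higher. No member reached a log2 fold change of 1 in either direction, a size that 17.7% of tested genes reached. The members ranged from −0.76 to 0.80, with a median of −0.10 where the median of all tested genes was −0.02. Of the 48 members not called, 46 had a 95% interval of the log2 fold change that lay between −0.5 and 0.5. In 19 members every EA library lay below every control library and in 7 above, 26 genes of 77, whereas 30.7% of all tested genes were without overlap downward and 29.9% upward, or 60.6% together. Of those 26 members 25 were called, and the other was Mrpl41, a mitochondria-specific protein at 8.09 to 8.48 CPM (here, as from now on, with TMM factors) in control and 9.25 to 10.6 in EA (log2 fold change 0.26, adjusted p = 0.0538, edgeR).

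**Figure D1:**
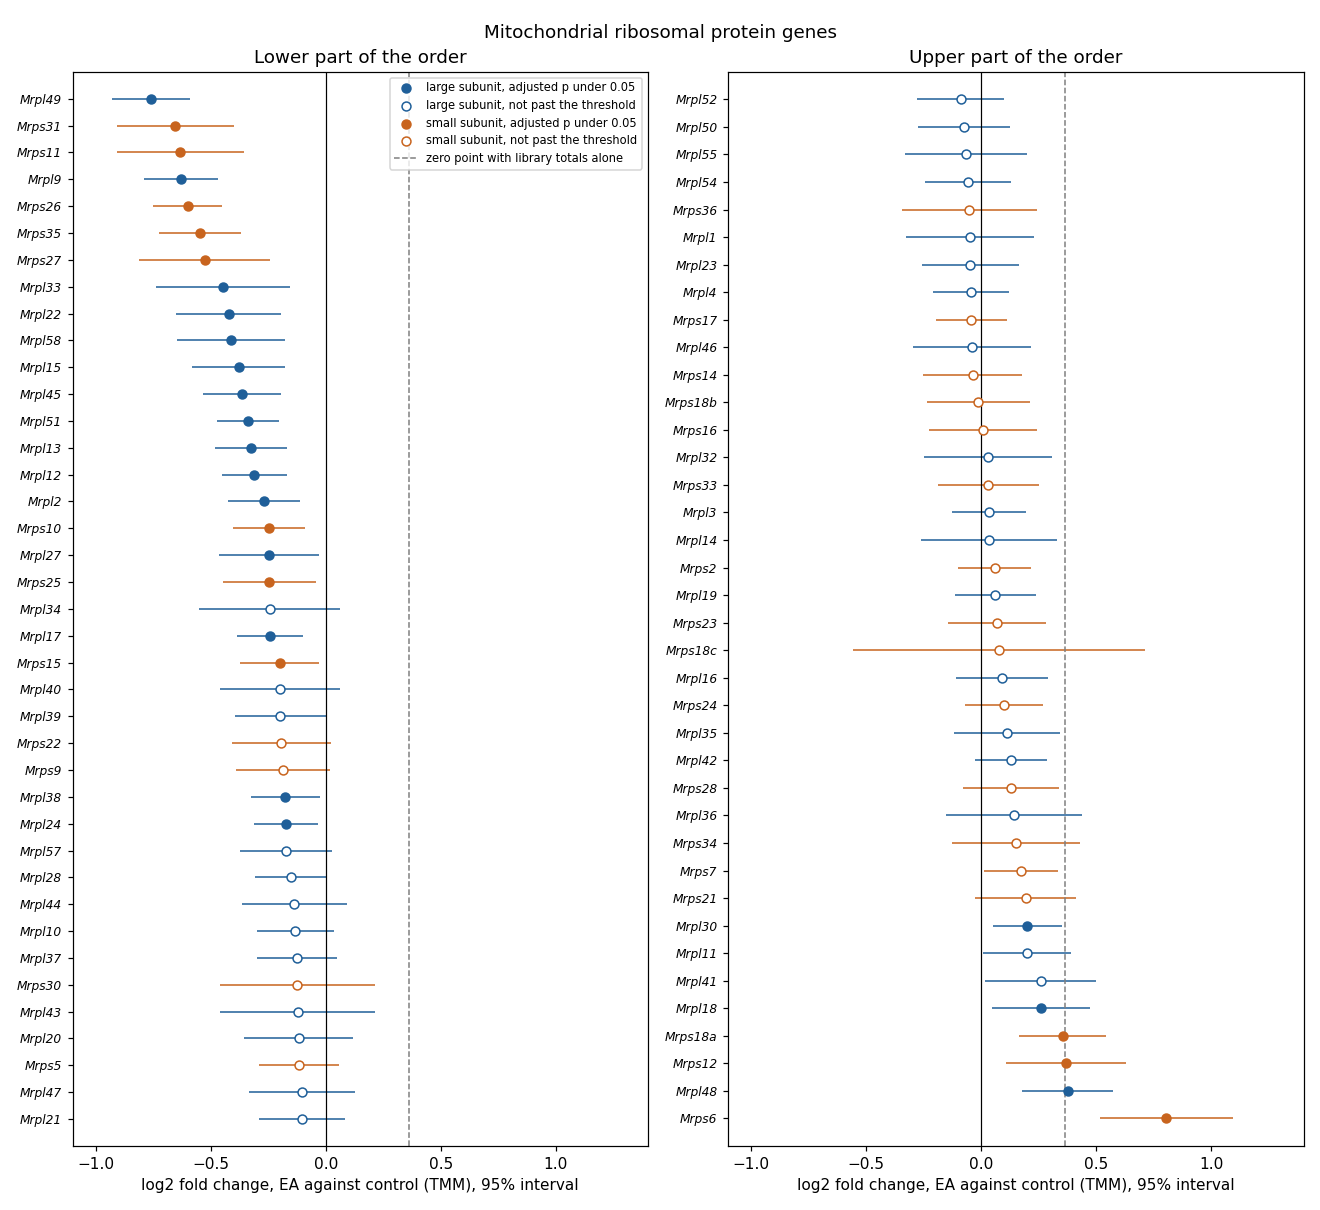
Log2 fold change of EA against control for the 77 tested members, with 95% intervals, in order from the lowest (top left) to the highest (bottom right). Filled points passed the threshold, colours give the subunit by symbol, and the dashed line marks where 0 would lie if libraries were scaled by their totals alone, with Mrps6, Mrpl48 and Mrps12 to its right.

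The balance of falls and rises depended on how libraries were scaled. Library totals alone, without composition factors, gave 66 lower members and 1 higher, while all tested genes were 61.1% lower and 16.5% higher. Upper-quartile factors gave 42 lower and 2 higher, beside 45.3% and 24.0% of all genes. The median of all tested genes moved from −0.02 to −0.38 with library totals, and that of members from −0.10 to −0.46. A change of scaling shifts all genes by nearly the same amount, so this joint move says nothing about the members. With library totals Mrpl49, at −1.12, and Mrps31, at −1.02, fell by more than 2-fold, and Mrpl49 also did so on log2(FPKM + 1), at −1.06. All 23 members that fell with TMM also fell with library totals and with upper-quartile factors. Both scalings move values downward, so that result is no separate support for the falls. Of the 6 rising members, Mrps6 alone was still higher with library totals, and Mrps6 and Mrpl48 with upper-quartile factors. Log2 fold changes below are on the TMM scale unless another is named.

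**Figure D2:**
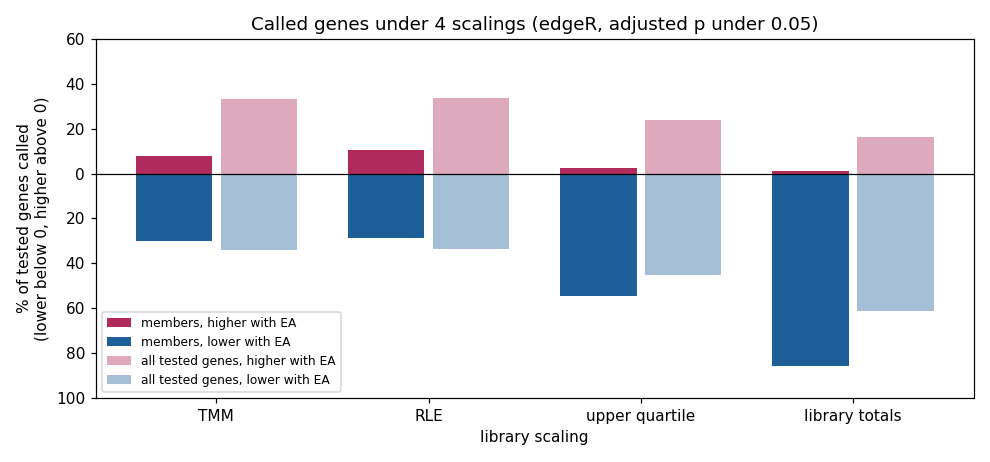
Share of the tested members (dark bars) and of all tested genes (pale bars) called higher (above 0) or lower (below 0) with EA under 4 library scalings, in percent. Members called lower went from 29.9% with TMM to 85.7% with library totals, and all genes from 34.2% to 61.1%.

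Summed over genes, the members took a smaller part of the reads in EA. Reads of the 49 large subunit genes made up 0.144%, 0.140%, 0.146% and 0.141% of the control libraries and 0.102%, 0.102%, 0.0968% and 0.101% of the EA libraries. For the 29 small subunit genes the shares were 0.0765%, 0.0757%, 0.0750% and 0.0733% in control and 0.0548%, 0.0569%, 0.0535% and 0.0577% in EA. In both subunits every EA library lay below every control library. A share of reads is scaled by library totals, and on that scale 56.0% of all tested genes were also lower without overlap. Their median log2 fold change there was −0.38. On the TMM scale the gap was narrower, with a sum over both subunits of 1924 ± 27.9 CPM for control and 1775 ± 51.8 for EA (SD, n = 4 each).

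The ratio of large to small subunit reads needs no library scaling. It was 1.89, 1.85, 1.95 and 1.92 in control and 1.87, 1.80, 1.81 and 1.75 in EA, so the mean was lower in EA and the groups overlapped by EA library 1. Per gene length, as a ratio of summed FPKM (reads scaled by gene length and library total), it was 2.12 ± 0.0446 in control and 1.86 ± 0.0639 in EA, with ranges of 2.07 to 2.18 and 1.80 to 1.95 that did not overlap. Without Mrps6, the largest rise among small subunit genes, the FPKM ratios still ranged from 2.11 to 2.21 in control and from 1.86 to 2.02 in EA. No p-value is given for these sums, since the genes form a chosen list.

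**Figure D3:**
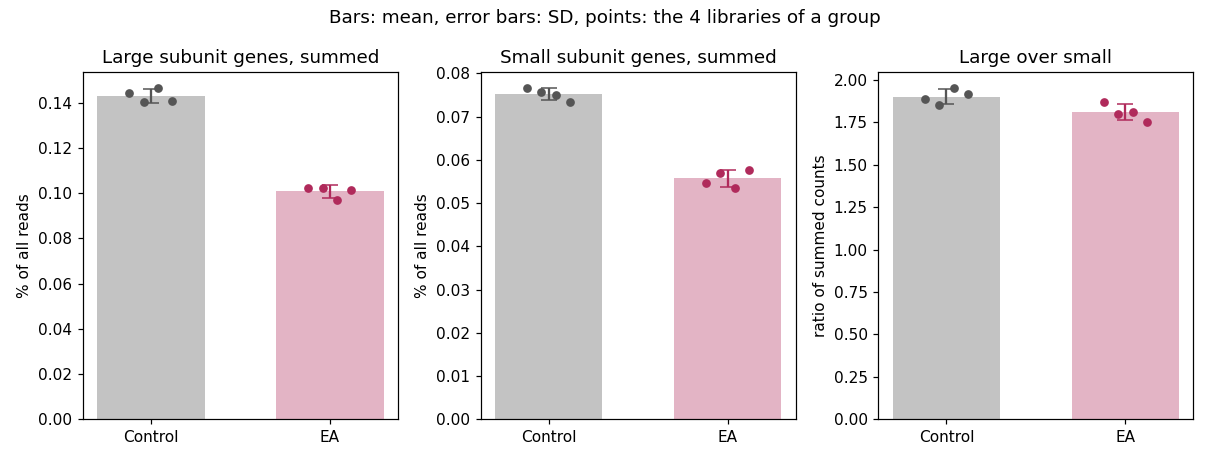
Summed reads of large and small subunit genes as a percentage of all reads, and the ratio of their summed counts, in each library (points), with group means (bars) and SD (error bars). Both shares were lower in all 4 EA libraries, as were 56.0% of all tested genes when scaled by library totals. The ratio was 1.75 to 1.87 in EA against 1.85 to 1.95 in control.

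Gene by gene, falls outnumbered rises in both subunits with TMM, where 34.2% of all tested genes fell and 33.1% rose. In the large subunit 15 of 48 tested genes fell and 3 rose, with a median log2 fold change of −0.12. In the small subunit 8 of 29 fell and 3 rose, with a median of −0.04. The difference of the medians was −0.08 with TMM and with library totals, as a change of scaling moves both medians alike. It was −0.14 without EA library 1 and −0.04 without EA library 2, and without EA library 3 the small subunit median was 0.02. Sorted by place in the ribosome structure instead of symbol, 15 of 50 large subunit genes fell and 4 rose, and 8 of 26 small subunit genes fell and 2 rose. Sorted by ancestry, 13 of 45 genes with a bacterial counterpart fell and 4 rose (median −0.05). Of 30 tested genes sorted as mitochondria-specific 10 fell and 2 rose (median −0.13). Of the paralogues related to bacterial S18, Mrps18c was put with the bacterial counterparts. Mrps18a, which rose, and Mrps18b were put with the mitochondria-specific genes. Mrpl55 and Mrps36 were in neither group. Otherwise the same genes enter each way of sorting, and the groups were not tested against each other.

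The 10 largest falls were shared between subunits, with 5 genes of each. Mrpl49, a mitochondria-specific protein of the large subunit (chromosome 19, 6103652 to 6107815, minus strand, build GRCm39), was at 43.7, 39.1, 45.3 and 38.5 CPM in control and 24.4, 23.2, 26.5 and 24.1 in EA. The groups were far apart, and Mrpl49 fell by 0.76 ± 0.08 on the log2 scale (SE, adjusted p = 5.58e-08). Mrpl9, whose product is the counterpart of bacterial protein L9 (chromosome 3, 94350625 to 94358437, plus strand), was at 41.0, 36.9, 41.8 and 37.9 CPM in control and 27.7, 25.0, 24.8 and 24.6 in EA. Every EA library was again below every control library, with a log2 fold change of −0.63 ± 0.08 (adjusted p = 4.68e-07). Mrpl22, which lines the tunnel by which the nascent chain leaves, was 1.34-fold lower, and Mrpl58, a peptidyl-tRNA hydrolase that rescues stalled ribosomes, was 1.33-fold lower. Mrpl33 was 1.36-fold lower, but its EA libraries at 6.27, 6.04, 8.97 and 7.05 CPM overlapped its control libraries at 8.83, 9.69, 9.66 and 10.6.

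In the small subunit the falls were largest for Mrps31, a mitochondria-specific protein of the subunit head (chromosome 8, 22901377 to 22919681, plus strand). It was at 18.4, 17.9, 15.8 and 20.6 CPM in control and 11.6, 14.1, 9.43 and 11.2 in EA, without overlap, and fell by 0.65 ± 0.12 (adjusted p = 8.45e-05). Mrps26, also mitochondria-specific (chromosome 2, 130405662 to 130410615, plus strand), was at 52.8, 48.9, 47.9 and 45.6 CPM in control and 31.0, 32.6, 31.2 and 34.1 in EA. It was the most counted gene of these 10, and all EA libraries lay below all control libraries (log2 fold change −0.60 ± 0.07, adjusted p = 3.34e-07). Mrps11, the counterpart of bacterial S11 on the platform, was 1.55-fold lower. Mrps35 of the subunit head was 1.46-fold lower, and Mrps27, a pentatricopeptide repeat protein, was 1.44-fold lower, each without overlap between groups. The other 13 falling members had log2 fold changes from −0.38 to −0.17.

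Among these smaller falls were several of the most counted members. Mrpl51, a mitochondria-specific protein, was at 57.2, 53.4, 60.5 and 58.6 CPM in control and 45.3, 46.9, 45.8 and 43.8 in EA, a fall of 1.26-fold with a gap between the groups (adjusted p = 0.000128, edgeR). Mrpl13, the counterpart of bacterial L13, was at 48.1 to 55.9 CPM in control and 38.5 to 46.7 in EA, and Mrpl15, the counterpart of L15, at 25.5 to 30.4 and 17.7 to 23.1. Neither overlapped. Mrpl17 and Mrpl24, both near the exit of the nascent chain, were 1.18-fold and 1.13-fold lower, without overlap. Mrps10 of the small subunit head was 1.19-fold lower, but EA library 4 at 51.2 CPM lay above control library 1 at 50.2. The groups also overlapped for Mrpl27, a counterpart of bacterial L27, which was 1.19-fold lower, and for Mrps25, 1.18-fold lower.

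Of these smaller falls 5 had calls near the threshold (adjusted p = 0.0275 to 0.0445, edgeR). Each lost its call in 5 or 6 of the 8 fits that left out 1 library. Mrps25 lost its call without control library 1, 2 or 3 or EA library 2 or 3 (log2 fold changes −0.23 to −0.17, adjusted p = 0.0682 to 0.134, edgeR). Mrpl24 lost it without control library 1 or 2 or EA library 1, 2 or 3 (−0.17 to −0.14), and Mrpl38 without control library 1 or 2 or EA library 1, 3 or 4 (−0.17 to −0.15). Mrpl27 lost it without control library 1 or 3 or EA library 2, 3 or 4 (−0.26 to −0.18). Mrps15, the counterpart of bacterial S15, lost it without control library 2, 3 or 4 or EA library 1, 2 or 3 (−0.21 to −0.16). All stayed negative. None of the 10 larger falls lost its call in those 8 fits.

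All 6 rises were smaller than a log2 fold change of 0.4 except that of Mrps6. Mrps6, the counterpart of bacterial S6 (chromosome 16, 91855158 to 91909115, plus strand), was at 10.1, 7.64, 9.27 and 6.08 CPM in control and 14.1, 14.2, 13.3 and 16.1 in EA. Every EA library was higher than every control library, and Mrps6 rose by 0.80 ± 0.14 on the log2 scale (adjusted p = 3.52e-05), or by 0.44 with library totals (adjusted p = 0.00741). The span of Mrps6 contains Slc5a3, a myo-inositol transporter gene on the same strand, over 29152 bases. Slc5a3 was itself higher, from 24.5 to 65.7 CPM (log2 fold change 1.42 ± 0.08, adjusted p = 1.96e-12). How the authors' counting assigned reads between these 2 genes is not given in the sources used here, and the part of Slc5a3 in the Mrps6 value was not tested.

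Mrpl48, a mitochondria-specific protein of the central protuberance, was at 20.9, 16.8, 20.6 and 17.8 CPM in control and 26.1, 25.0, 22.8 and 24.9 in EA, and rose 1.30-fold (adjusted p = 0.00154, edgeR), though with library totals its log2 fold change was 0.01. The gene Rab6a overlaps it by 892 bases on the opposite strand and was also higher, at 58.8 and 116 CPM, and its part in the Mrpl48 value was not tested. Mrps12, the counterpart of the bacterial decoding protein S12, was at 12.5, 11.3, 8.82 and 12.6 CPM in control and 13.2, 16.4, 13.3 and 15.4 in EA. Its groups did not overlap, and it rose 1.29-fold (adjusted p = 0.0134), with a log2 fold change of 0.01 under library totals. The call for Mrps12 was lost without control library 3 (0.27) or EA library 2 (0.31).

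Mrps18a, 1 of 3 paralogues related to the bacterial protein S18, rose 1.28-fold from 22.9 ± 2.40 to 29.2 ± 2.12 CPM, and with library totals its direction reversed (log2 fold change −0.01). The other paralogues were not called: Mrps18b was at 21.8 ± 1.72 and 21.6 ± 3.71 CPM, with a 95% interval of the log2 fold change from −0.24 to 0.21, and Mrps18c at 1.44 ± 0.321 and 1.54 ± 0.560 CPM, with an interval from −0.56 to 0.71. Mrpl18, the counterpart of bacterial L18, ranged from 11.2 to 13.2 CPM in control, with library 2 the lowest, and rose to at most 15.8 in EA, where no library reached down to the control values. Mrpl30, the counterpart of L30, was at 28.6 to 29.7 CPM in control and 32.1 to 34.2 in EA. With TMM both rose without overlap, by 0.26 and 0.20 on the log2 scale, and both reversed with library totals, to −0.10 and −0.16. Mrpl18 lost its call without control library 2 (0.21), EA library 2 (0.24), EA library 3 (0.25) or EA library 4 (0.26).

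**Figure D4:**
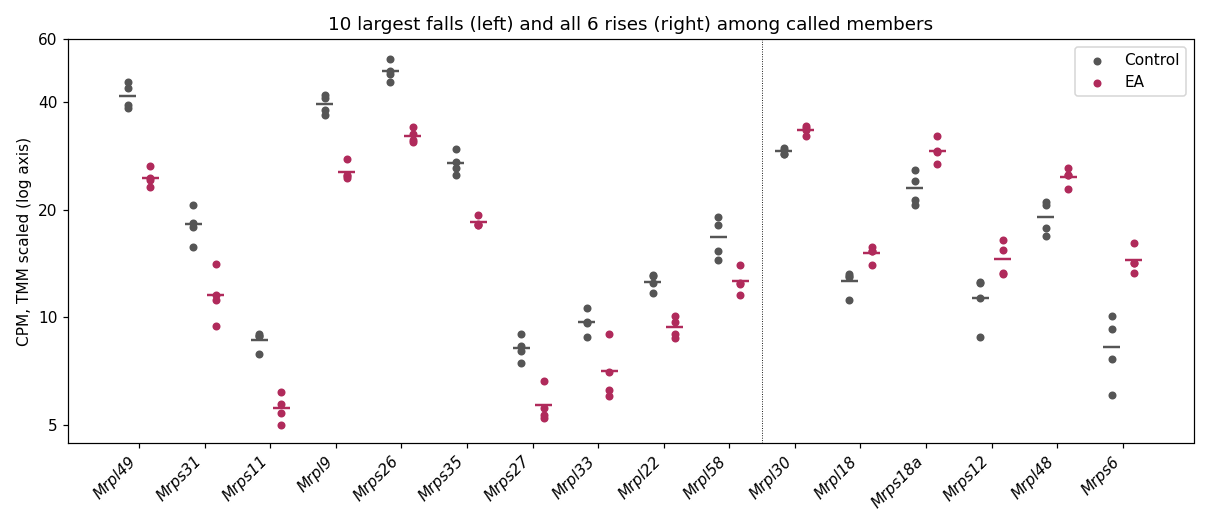
CPM on a log axis in each library (points, with the group mean as a line) for the 10 called members with the largest falls and the 6 that rose. Control and EA points are apart for each gene except Mrpl33 on this TMM scale. With library totals Mrps6 stayed higher, Mrpl48 and Mrps12 were at 0.01, Mrps18a at −0.01 and Mrpl18 at −0.10, none of these 4 past the threshold, and Mrpl30 fell by 0.16.

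Neighbouring proteins in the ribosome did not all share a direction. These groups of sites were drawn up with the members' values known, so their counts are a description, beside 34.2% of all tested genes lower and 33.1% higher with TMM. Of 6 genes for proteins around the polypeptide exit 4 fell and none rose, among them Mrpl45, which anchors the ribosome to the inner membrane, at 33.5 ± 2.33 CPM in control and 26.1 ± 1.66 in EA (adjusted p = 0.000547, edgeR). In the central protuberance 2 of 6 rose with TMM, Mrpl48 and Mrpl18, of which Mrpl18 reversed with library totals, and 2 fell, Mrpl27 and Mrpl38. In the stalk, where translation factors bind, Mrpl12 fell from 40.9 ± 1.02 to 32.9 ± 0.803 CPM (log2 fold change −0.31 ± 0.07, adjusted p = 0.000469). Mrpl10, its stalk partner, had a log2 fold change of −0.13 with an interval from −0.30 to 0.03, and Mrpl11 at the stalk base had 0.20 with an unadjusted interval from 0.01 to 0.39, or −0.16 with library totals (adjusted p = 0.149 and 0.0605 with TMM). On the platform of the small subunit Mrps6 rose while Mrps11 and Mrps15 fell.

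Levels per length varied widely among the members. Mean FPKM over all libraries ranged from 0.972 for Mrps30 to 38.7 for Mrpl2, with a median of 8.29. Mrpl2, which lies near the peptidyl transferase centre, was at 47.1 ± 2.50 FPKM in control and 30.4 ± 2.59 in EA. Its CPM was 49.0, 52.0, 45.8 and 47.6 in control and 38.2, 39.2, 38.2 and 45.6 in EA, with EA library 4 just under the lowest control library, and it fell by 0.27 on the log2 scale (adjusted p = 0.00352, edgeR). Next were Mrps21 at 35.1 ± 5.46 and 31.2 ± 2.85 FPKM and Mrpl28 at 36.3 ± 2.64 and 25.4 ± 1.66, neither past the threshold on the CPM scale. FPKM is scaled by library totals, and it was lower in every EA library than in every control library for 55 members and higher for 1, where 56.0% of all tested genes were lower without overlap on that scale and 14.8% higher. At the low end Mrpl33 had a mean of 1.18 FPKM and Mrps18c 1.39. The authors' gene lengths for members ran from 607 to 8631 bases, and a length that includes rarely used exons lowers FPKM. Mrpl53 had 0 reads in all 8 libraries, which allows at most 3 reads per library, or 0.173 to 0.213 CPM of the library total. Its whole span of 900 bases lies within another gene of the table on the same strand, Gm42688, which had 42 reads in all. Whether the counting left out reads shared by both genes is not given in the sources used here, so the limit is one on counted reads and not on expression of Mrpl53.

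In all, 25 members overlapped another gene of the table, in 29 pairs. The library protocol describes no step that marks strand, so reads from overlapping parts of genes on opposite strands may not have been told apart. Among the 29 called members 12 had an overlap on either strand, in 13 pairs, of which the partners Oaz3, Rsph9 and Gm49711 were not tested. Over all tested genes 34.2% were lower and 33.1% higher, and the part of partner reads in the member calls was not tested. In 5 of the 13 pairs the partner was called in the same direction and in none in the opposite one. Besides Slc5a3 and Rab6a, these partners were Mtbp, 1.16 lower on the log2 scale beside Mrpl13, Eme1 beside Mrpl27 (−1.80) and Nr2c2 beside Mrps25 (−0.70). Mrps11 and Mrpl46, both members, overlap by 413 bases on opposite strands, and Mrps11 fell while Mrpl46 had a log2 fold change of −0.04.

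Promoter windows were searched for short sequences that the members share. The RefSeq table for build GRCm38.p6 held windows of 250 bases before to 50 bases after the start for 69 of the 78 members, 75 windows in all. Searched on both strands were the 7-letter cores GCGCATG of NRF1, CCGGAAG of GABP and other ETS factors, and ATGGCGG of YY1, 3 factors known for nuclear genes of mitochondrial proteins. The ATG that ends the NRF1 core also begins the YY1 core, and NRF1 matches on opposite strands can overlap, as they do in the Mrpl9 window. The windows shown are those of the largest fall and the largest rise, which hold no match, and those of 2 falling genes and 1 rising gene that do, chosen after their values were seen. Matches are in capitals.
Mrpl49 (chr19:6057706-6058005, minus strand): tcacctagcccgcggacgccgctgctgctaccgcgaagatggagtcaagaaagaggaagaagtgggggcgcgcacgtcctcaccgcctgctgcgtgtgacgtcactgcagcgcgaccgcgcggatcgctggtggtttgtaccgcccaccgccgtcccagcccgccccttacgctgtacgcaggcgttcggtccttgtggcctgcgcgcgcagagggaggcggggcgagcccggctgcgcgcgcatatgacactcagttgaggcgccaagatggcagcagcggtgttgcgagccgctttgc
Mrps6 (chr16:92058086-92058385, plus strand): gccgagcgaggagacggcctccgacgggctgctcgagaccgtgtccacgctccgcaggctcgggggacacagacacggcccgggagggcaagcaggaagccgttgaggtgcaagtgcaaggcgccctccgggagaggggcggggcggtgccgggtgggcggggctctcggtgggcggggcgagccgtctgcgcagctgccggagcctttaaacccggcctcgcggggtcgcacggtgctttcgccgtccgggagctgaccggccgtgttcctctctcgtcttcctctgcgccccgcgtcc
Mrpl9 (chr3:94443086-94443385, plus strand): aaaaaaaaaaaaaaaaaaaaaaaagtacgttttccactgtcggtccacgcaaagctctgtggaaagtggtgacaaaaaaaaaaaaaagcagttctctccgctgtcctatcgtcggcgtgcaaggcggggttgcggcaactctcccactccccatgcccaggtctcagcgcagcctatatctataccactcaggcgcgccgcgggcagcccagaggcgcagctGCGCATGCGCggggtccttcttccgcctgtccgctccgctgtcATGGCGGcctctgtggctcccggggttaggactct
Mrps26 (chr2:130563507-130563806, plus strand): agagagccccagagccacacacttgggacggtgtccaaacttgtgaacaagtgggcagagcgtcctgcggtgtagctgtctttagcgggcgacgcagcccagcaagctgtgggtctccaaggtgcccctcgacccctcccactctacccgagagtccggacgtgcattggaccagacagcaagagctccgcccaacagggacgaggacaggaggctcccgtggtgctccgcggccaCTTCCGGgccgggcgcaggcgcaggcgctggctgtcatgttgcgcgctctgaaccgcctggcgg
Mrps12 (chr7:28741772-28742071, minus strand): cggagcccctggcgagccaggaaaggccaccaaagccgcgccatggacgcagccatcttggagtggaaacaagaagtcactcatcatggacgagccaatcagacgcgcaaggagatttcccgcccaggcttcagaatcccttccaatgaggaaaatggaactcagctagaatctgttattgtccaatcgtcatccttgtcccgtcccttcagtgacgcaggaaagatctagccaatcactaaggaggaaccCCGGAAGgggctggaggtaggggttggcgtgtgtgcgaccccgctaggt

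The Mrpl9 window holds the NRF1 core on the forward strand from position −28 and on the reverse strand from −25, and the YY1 core from position 16, where 1 is the first transcribed base. That of Mrps26 holds the GABP core on the reverse strand from −14, and that of Mrps12 on the forward strand from position 2. Over members, 34.7% of windows held the GABP core, against 17.6% of windows of tested genes and 8.86% of all 32851 windows. The YY1 core was in 17.3% of member windows, 8.03% of those of tested genes and 4.05% of all, and the NRF1 core in 10.7%, 6.96% and 3.91%. Among members, the GABP core was in 8 of 21 windows of genes that fell, 4 of 9 of genes that rose and 13 of 44 of genes not called. Any of the 3 cores was in 10 of 21 windows of falling genes, 4 of 9 of rising genes and 22 of 44 of genes not called, and in 28.6% of windows of all tested genes. A match of letters is not evidence of binding.

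The remaining proteins of the ribosome and the genes that serve it were taken from lists. Of 5 genes for mitochondrial ribosomal proteins with other symbols 4 were tested. Aurkaip1 rose 1.29-fold with TMM (adjusted p = 0.00147, edgeR) but had a log2 fold change of 0.01 with library totals, and Dap3, Ptcd3 and Chchd1 were not called. Dap3, a GTP-binding protein of the small subunit, was at 67.9 to 76.7 CPM in control and 68.4 to 74.3 in EA, with an interval of the log2 fold change from −0.14 to 0.12. Genes for assembly and ribosomal RNA modification had 18 of 28 lower and 1 higher, with a median of −0.38, beside 34.2% lower among all tested genes. The GTPase genes Mtg2, at 27.9 ± 2.08 and 17.1 ± 1.68 CPM, and Noa1, at 15.5 ± 1.61 and 37.7 ± 1.41, went opposite ways, as Mtg2 fell and Noa1 rose 2.43-fold. Rmnd1 was 1.73-fold lower.

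Translation factors had 12 of 17 tested genes lower and 1 higher, with a median of −0.46. With library totals 15 of the 17 were lower and none higher, where 61.1% of all genes were lower. The elongation factor genes Tufm and Gfm1, at 44.9 and 71.9 CPM in control and 43.2 and 77.3 in EA, were not called. Taco1, the activator of cytochrome c oxidase subunit I translation, went from 10.2 ± 1.09 to 4.34 ± 0.994 CPM, and Oxa1l, which inserts new chains into the inner membrane, was 1.52-fold lower. The rising gene was Gatb, part of the glutamyl-tRNA(Gln) amidotransferase, by 0.58 on the log2 scale (adjusted p = 0.000129, edgeR). With library totals Gatb was not past the threshold (log2 fold change 0.22). The list for transcription and RNA stability also held Twnk and Polg, which serve DNA replication. Of its 10 tested genes 6 fell and 1 rose with TMM, beside 34.2% and 33.1% of all tested genes. The mitochondrial RNA polymerase gene Polrmt was 1.72-fold lower and the helicase gene Twnk 1.59-fold lower, whereas the DNA polymerase gene Polg rose 1.78-fold.

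Among all tested genes 33.1% were higher with TMM and 16.5% with library totals, and 34.2% and 61.1% were lower. Messenger RNAs of the mitochondrial genome, the templates of these ribosomes, had 10 of 12 tested genes higher and none lower, with a median of 0.75 (0.39 with library totals, where 7 were called). Cytosolic ribosomal protein genes had 52 of 79 higher and 1 lower, with a median of 0.19, and with library totals 2 were higher and 54 lower. All these comparisons share the same 8 libraries, and the differences between lists were not tested.

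**Figure D5:**
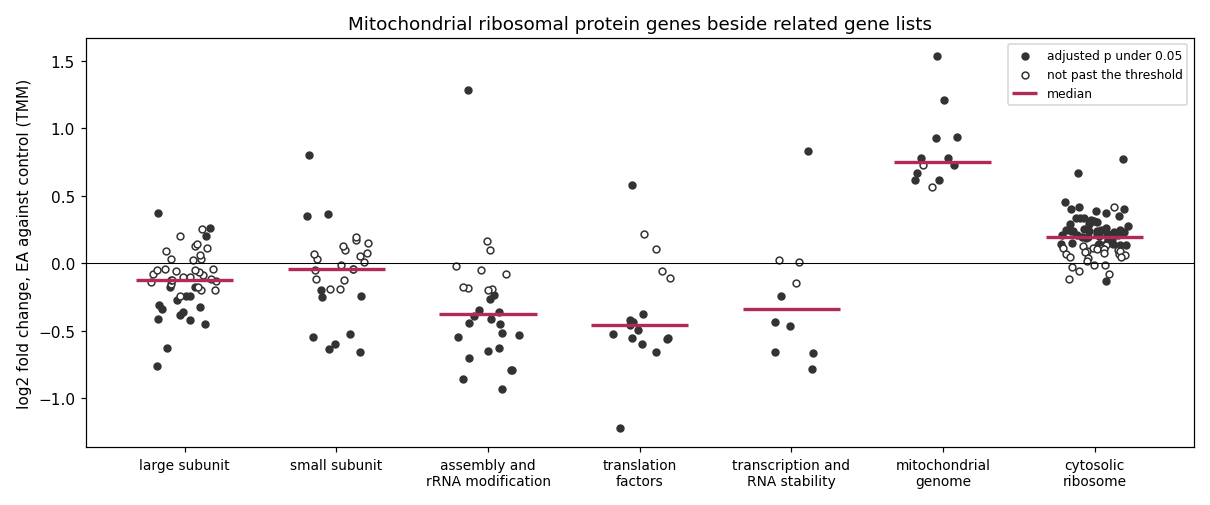
Log2 fold change of EA against control (TMM) for each tested gene (points, filled when past the threshold) with the median of each list as a bar. Large and small subunit genes centre on −0.12 and −0.04, assembly and translation factor genes on −0.38 and −0.46, and genes of the mitochondrial genome on 0.75.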

How the data were processed

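The authors deposited a read count for each gene and library, made from poly(A) RNA. The tools were cutadapt 1.15 and HISAT2 2.0.5 with build GRCm39, per the submitters' processing notes. The sources used here do not give the counter, how it used strand, or the annotation release. The FPKM values the authors deposited equalled the count scaled by gene length and column total, with a largest relative deviation of 5.10e-15.

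Counts were fitted over all genes in R 4.3.3 with edgeR 4.0.16, using TMM factors, the default filter by group (11777 of 21899 genes), and the robust quasi-likelihood F test for the 2 groups with Benjamini-Hochberg adjustment. The SE is the log2 fold change divided by the square root of F, and 95% intervals use the moderated degrees of freedom. The common biological coefficient of variation was 7.78%. Groups came from the sample titles, and no library was left out or found to be a duplicate. Total counts of 14112519 to 17390200 set the precision, and limits at 0 reads cover counting error only.

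Members were chosen by symbol. The members, lists and tests were chosen with earlier results of these data known. Members were named as the 10 largest called changes per direction, the 3 highest and 3 lowest by FPKM, the member not tested and 10 with a fixed role, and listed genes as up to 2 per direction by p. Other named genes were chosen after their values were seen. Other settings tried were the RLE, upper-quartile and unadjusted library scalings, no or a stricter count filter, DESeq2 1.42.0, limma 3.58.1 with voom and on log2(FPKM + 1) and log2(FPKM + 0.1), an adjusted p under 0.01, no mitochondrial genome genes, a replicate block, and each library left out in turn. The edgeR, DESeq2, voom and log2(FPKM + 1) fits were tested on simulated data. The simulation changed few genes, with rises and falls equally likely. It therefore cannot show how the scalings perform where most genes are called. Figures were drawn with matplotlib 3.10.9.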

Additional observations from a re-analysis of the deposited data

Results flagged for a closer look

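In 6 of 66 groups of 4 libraries, the highest or lowest library stood apart from the other three by more than Dixon's 95% critical value allows, a gap that chance gives in about 1 of 20 groups. In control, library 2 was low for Mrpl18, at 11.2 CPM where the highest was at 13.2, and library 4 was low for Mrps11, at 7.89 against 8.84 to 8.99. In EA, library 1 was high for Mrpl9, at 27.7 against 24.6 to 25.0, and for Mrps35, at 19.3 against 18.1 to 18.3. EA library 4 was high for Mrpl2, at 45.6 against 38.2 to 39.2, and for Mrpl10, at 34.7 against 29.3 to 29.5. Without EA library 4, Mrpl10 had a log2 fold change of −0.19 and passed the threshold (adjusted p = 0.0417, edgeR), with adjusted p from 0.0807 to 0.307 without any other 1 library.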

How the results depend on the processing

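The counts of 6 rising and 23 falling members depended on scaling. Higher and lower members numbered 2 and 42 with upper-quartile factors and 1 and 66 with library totals, with limma on log2(FPKM + 1) and with limma on log2(FPKM + 0.1). At an adjusted p under 0.01 there were 3 higher and 18 lower, where 28.3% of all tested genes were higher and 28.9% lower. Over all genes, upper-quartile factors gave 2830 higher and 5338 lower and library totals 1940 and 7196, against 3893 and 4027. The median of large subunit genes was −0.28 with upper-quartile factors, −0.48 with library totals, −0.43 on log2(FPKM + 1) and −0.48 on log2(FPKM + 0.1). That of small subunit genes was −0.19, −0.40, −0.34 and −0.39 in the same order. RLE factors, DESeq2, voom and both count filters gave 4 to 8 higher and 20 to 23 lower members. Over all genes these settings gave 22.9% to 33.9% higher and 24.2% to 34.9% lower. Leaving out 1 library gave 5 to 7 higher and 18 to 23 lower, with medians of −0.15 to −0.10 for the large and −0.08 to 0.02 for the small subunit. In those fits 31.1% to 33.8% of all genes were higher and 31.9% to 33.3% lower.

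With library totals, log2(FPKM + 1) and log2(FPKM + 0.1), 6 of the members named by rule reversed. Mrps18a was at −0.0089, −0.0068 and −0.0073, Mrpl18 at −0.103, −0.092 and −0.10, and Mrpl30 at −0.16, −0.15 and −0.16. Of uncalled members, Mrps21 was at −0.17, −0.16 and −0.16, Mrpl11 at −0.16, −0.14 and −0.16, and Mrps18c at −0.28, −0.17 and −0.29, as well as −0.079 with upper-quartile factors. Leaving out 1 library gave −0.18 to 0.25 for Mrps18c, −0.14 to 0.049 for Mrps18b and −0.22 to 0.0021 for Mrps30. With library totals the median of all tested genes moved from −0.02 to −0.38, a shift that turns small positive values negative. The cause of the sign changes on leaving out 1 library was not tested.

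Libraries with the same number did not vary together (correlations of −0.02 to 0.03 between deviations from group means), and no library correlated best with its own number. The labels state no pairing either, so the numbers were not taken to pair the libraries. With the replicate block 6 members were higher and 22 lower, with Mrpl38 no longer called, beside 32.6% and 33.6% of all genes. The widest interval of a tested member was that of Mrps18c, which had 186 reads in all 8 libraries.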

Other observations

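Among genes that regulate the making of mitochondria, 2 of 9 tested rose and 3 fell, or 1 and 6 with library totals. Of all tested genes 33.1% rose and 34.2% fell, or 16.5% and 61.1% with library totals, so these counts lie near the background. Pprc1, a coactivator of the PGC-1 family, went from 127 ± 10.5 to 220 ± 15.1 CPM and rose 1.73-fold (adjusted p = 1.70e-09, edgeR), also with library totals (log2 fold change 0.43). Gabpb1, a subunit of GABP, rose 1.42-fold with TMM, and with library totals it was not past the threshold (log2 fold change 0.15). Myc was 1.95-fold lower, from 176 ± 23.3 to 90.6 ± 13.4 CPM, and Gabpb2, the paralogue of Gabpb1, was 1.23-fold lower. Of genes picked with their values known, Nrf1 had a log2 fold change of −0.01 (adjusted p = 0.942) and Gabpa 0.07 (adjusted p = 0.483), neither past the threshold. Esrra, an orphan nuclear receptor, fell by 0.29 with groups that overlapped. Ppargc1a, which encodes PGC-1 alpha, had too few reads to be tested.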
